A study of Mus musculus with 12 samples.

Results

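Cytosolic ribosomal proteins are the protein part of the 80S ribosome, which translates nuclear-encoded mRNAs in every cell. Their mRNAs are among the most abundant in a cell, carry a pyrimidine-rich start called a TOP motif, and are translated together under the control of the growth kinase mTORC1 and the RNA-binding protein LARP1. Small-subunit proteins (Rps) surround the mRNA decoding site, and large-subunit proteins (Rpl) surround the site of peptide bond formation and the tunnel through which the new protein leaves. In the pancreas, acinar cells devote most of their translation to digestive enzymes and islet endocrine cells to hormones. The genes described here were chosen by a rule on gene names, set with earlier results of these data known. It took every gene of the authors' comparison table called Rpl or Rps with a number, with or without a paralog or isoform suffix. It also took Rplp0, Rplp1, Rplp2 and Rpsa. This rule gave 82 of 13703 genes in that table, 33 of the small and 49 of the large subunit, and all 82 were among the 13115 genes that passed the filter on low counts.

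The libraries measured polyadenylated RNA of freshly isolated pancreatic islets from wild-type female NOD/ShiLtJ mice, a strain in which autoimmunity destroys the insulin-producing cells. Treatment began at 9 weeks of age, while blood glucose was normal, and was given weekly for 4 weeks. There were 6 libraries from mice given control IgG and 6 from mice given an antibody against CD3, part of the T cell receptor complex, at 2.5 mg/kg. Islets were taken 2 to 3 days after the last dose. The labels do not say whether a library came from 1 mouse or a pool, so p-values measure only the spread between these samples.

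Library totals ran from 11891132 to 17628347 counts for IgG and 10994337 to 19284740 for anti-CD3. Although the tissue is labelled as endocrine pancreas, acinar genes took 71.9% to 75.7% of the counts in anti-CD3 and 34.0% to 75.2% in IgG, where IgG 6 had 34.0% and IgG 5 had 57.8%. IgG 6 also had the highest mean of leukocyte and myeloid genes, 6.13 on the log2 CPM scale against 2.36 to 4.43 in the other IgG libraries and 1.80 to 4.52 in anti-CD3. Islet endocrine genes were present in all libraries, with a mean of 6.61 to 7.04 log2 CPM in IgG and 6.41 to 7.23 in anti-CD3. These are bulk samples, in which fewer cells of a type and less RNA per cell cannot be told apart.

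The groups were compared to learn what antibody treatment does to islet RNA. Ribosomal protein genes of both subunits had higher normalized counts in anti-CD3 islets, and they did so nearly in parallel. The median of the 82 log2 fold changes was 0.75, or 1.68-fold, with 0.78 for the small and 0.73 for the large subunit, against a median of -0.05 over all tested genes. All 82 values were above 0, as were 44.8% of all tested genes, and 67 of the 82 reached 1.5-fold and 2 reached 2-fold. The shares of all tested genes that reached these folds were not computed. The lowest of the 82, Rps4l, lay below 0 under 8 of 23 other settings, and Rplp2, Rps13 and Rps27 did so only when fold changes were corrected for transcript length.

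Whether these differences passed a threshold depended on the test. With edgeR's quasi-likelihood test 0 of the 82 passed an adjusted p of 0.05, against 0.0762% of all tested genes higher in anti-CD3, and the adjusted p of the 82 ran from 0.0646 to 0.969. At an adjusted p under 0.1 edgeR gave 55 of the 82 as higher, against 1.78% of all tested genes. At an unadjusted p under 0.05, 79 of the 82 were higher and 0 lower, against 9.68% and 8.68% of all tested genes. DESeq2 passed 65 of the 82 as higher, against 2.81% of the genes it tested, and 0 as lower, against 1.23%. The authors' deposited table gave 67 of the 82 as higher at an adjusted p under 0.05, against 3.24% of its genes, and 0 were lower, against 1.31%.

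Single libraries mattered. Anti-CD3 2 was the lowest anti-CD3 library for 80 of the 82 genes, and without it edgeR passed 60 of the 82 (1.35% of all tested genes were then higher) and the median was 0.85. With any other single library left out edgeR passed 0 of the 82. The median log2 fold change was between 0.68 and 0.85 whichever library was left out. How often anti-CD3 2 was the lowest anti-CD3 library over all tested genes was not computed.

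**Figure D1:**
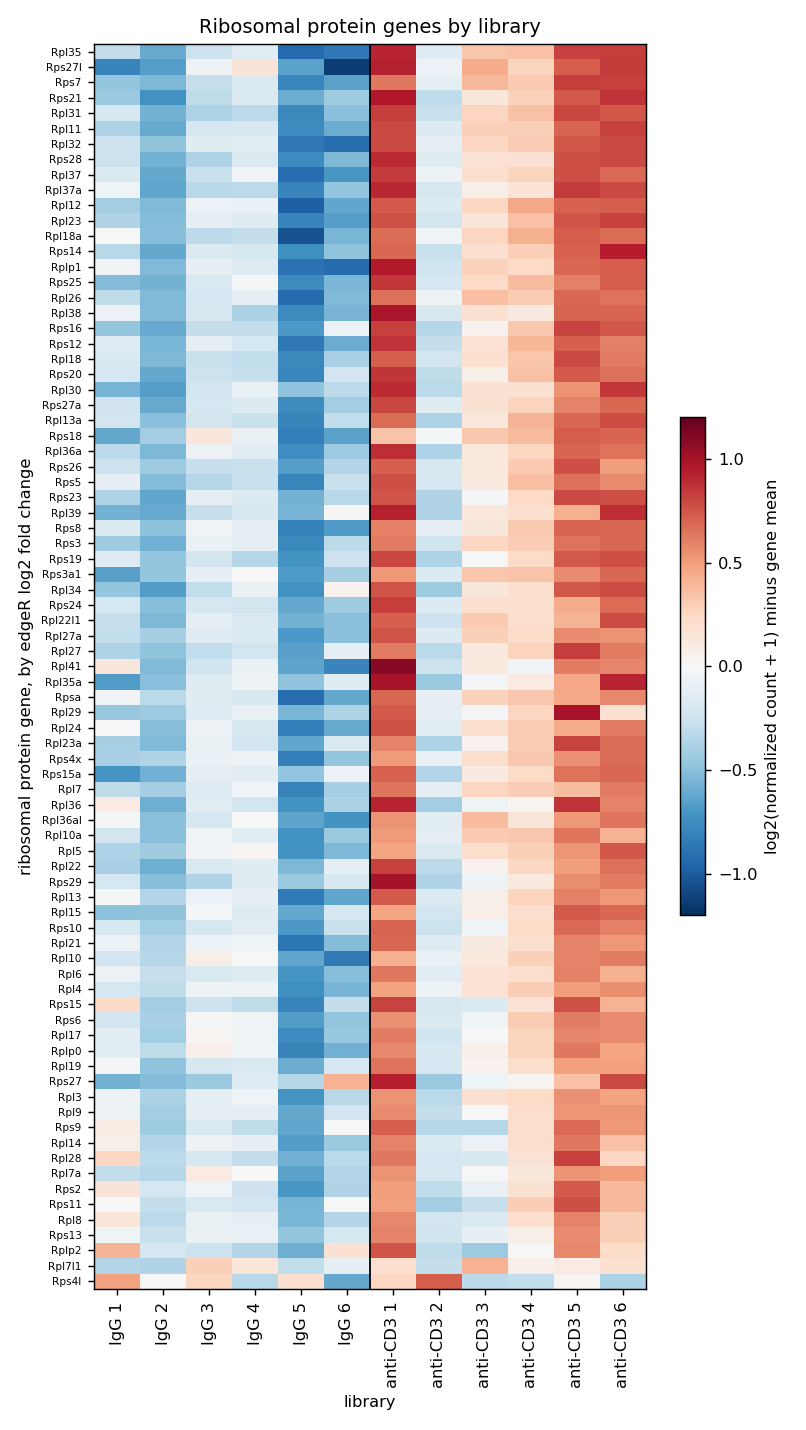
Normalized counts of 81 of the 82 ribosomal protein genes (rows, ordered by edgeR log2 fold change) in the 12 libraries (columns), as log2(normalized count + 1) minus the gene's mean over all libraries, with red above and blue below the mean. Anti-CD3 1, 5 and 6 are red in nearly every row, anti-CD3 2 is close to the IgG libraries, and IgG 5 is the lowest IgG library in most rows.

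The library pattern was shared by almost all of the genes. The mean of log2(normalized count + 1) over the 82 genes was 11.04, 10.78, 11.11, 11.11, 10.57 and 10.85 in IgG 1 to 6. In anti-CD3 1 to 6 it was 11.97, 11.05, 11.37, 11.50, 11.90 and 11.87. Anti-CD3 1, 5 and 6 were the highest, and anti-CD3 2 lay within the IgG range. Anti-CD3 1 exceeded every IgG library in 80 of the 82 genes, anti-CD3 5 and anti-CD3 6 in 79 each, anti-CD3 4 in 74 and anti-CD3 3 in 66, whereas anti-CD3 2 did so in 11. In 60 genes each of the 6 anti-CD3 libraries was above the mean of IgG. None of these counts was made over all tested genes, and the part of a shift of whole libraries in them was not tested.

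The groups did not overlap in 10 of the 82 genes, all with anti-CD3 above IgG, and 1.14% of all tested genes were separated in that direction. Among them were Rpl4, Rpl11, Rpl26, Rpl32, Rps7, Rps24, Rps26, Rps27a and Rps28, named after their values were seen. Without anti-CD3 2 the number was 65, against 3.0% of all tested genes, and without IgG 1 it was 20, against 2.1% of all tested genes. Both were computed after the data were seen.

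**Figure D2:**
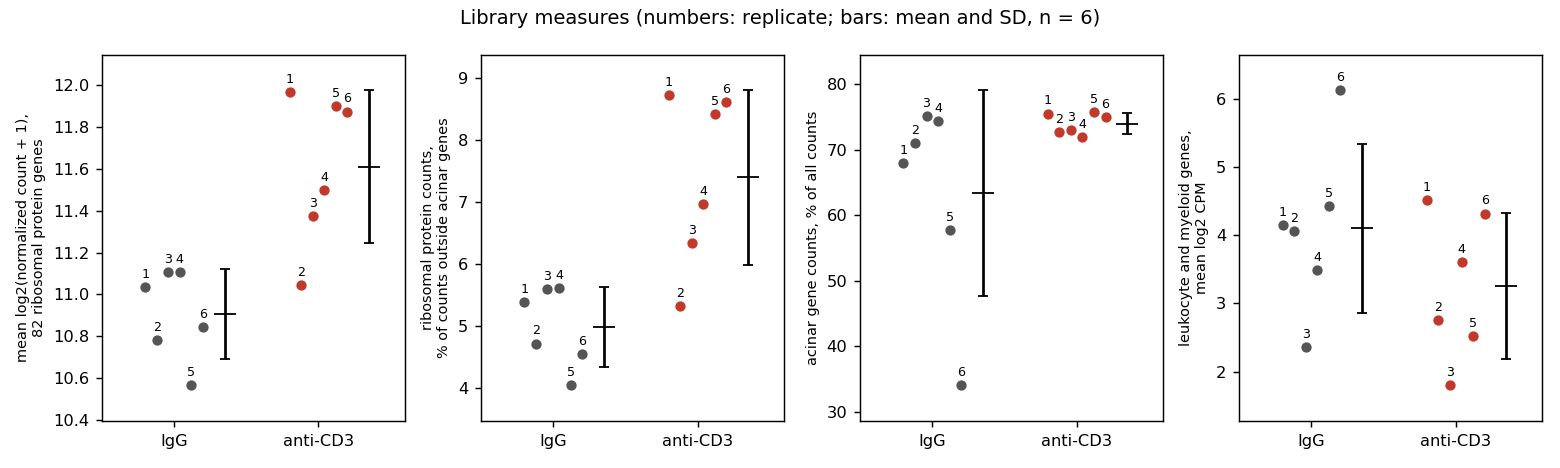
4 measures per library (points, numbered by replicate, with mean and SD as bars, n = 6 per group): mean log2 normalized count of the 82 ribosomal protein genes, their percent of the counts outside acinar genes, acinar genes as percent of all counts, and mean log2 CPM of leukocyte and myeloid genes. Anti-CD3 1, 5 and 6 lie above all IgG libraries in the first 2 panels, and IgG 6 stands apart in acinar and leukocyte genes.

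A higher share was also seen with no scaling factor applied, once the counts of the listed acinar genes were left out of the total. Ribosomal protein RNA made by acinar cells stays in this share, and its part was not tested. Ribosomal protein genes took 4.98% ± 0.647 of the counts outside acinar genes in the IgG libraries and 7.40% ± 1.41 in the anti-CD3 libraries (SD, n = 6 each). The values were 5.38%, 4.71%, 5.60%, 5.61%, 4.04% and 4.54% in IgG 1 to 6 and 8.73%, 5.31%, 6.34%, 6.96%, 8.42% and 8.61% in anti-CD3 1 to 6. All anti-CD3 libraries but anti-CD3 2 exceeded every IgG library.

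As a percent of all counts the groups overlapped, at 1.77% ± 0.621 for IgG against 1.91% ± 0.276 for anti-CD3 (SD, n = 6 each). The log2 ratio of the group means was 0.57 outside acinar genes and 0.11 over all counts. IgG 6, with the smallest acinar share, had the highest percent of all counts, 3.00%. The acinar shares of IgG 3 (75.2%) and IgG 4 (74.3%) lay within the anti-CD3 range of 71.9% to 75.7%. Outside acinar genes these 2 libraries had 5.60% and 5.61%, anti-CD3 2 (72.7% acinar) lay below them at 5.31%, and the other 5 anti-CD3 libraries lay above them, from 6.34% in anti-CD3 3 to 8.73% in anti-CD3 1.

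Cell type markers moved between the groups as well. Of 32 tested acinar genes 31 were above 0, at a median of 0.70 (log2 fold change), and all 18 T cell, 13 B cell, 15 leukocyte and myeloid and 14 stromal genes were below 0, with medians of -1.21, -1.34, -1.09 and -1.004. In these lists 0 genes passed edgeR, against 0.0762% of all tested genes as higher and 0% as lower. DESeq2 passed 2 acinar genes as higher and 3 stromal genes as lower, against 2.81% and 1.23% of the genes it tested. Of all tested genes 44.8% were above 0. IgG 6 weighed on the values of these lists, with means of 4.05 log2 CPM for B cell and 3.81 for T cell genes. The other IgG libraries ran from -1.52 to 2.14 and from -0.66 to 2.24. Anti-CD3 libraries ran from -1.58 to 2.00 and from -0.92 to 2.25, much the same ranges. Medians of these lists without IgG 6 were not computed. Islet endocrine genes had a median of -0.11, with 7 of 20 higher. With the acinar score as a covariate the median of the ribosomal protein genes was 0.63 and 69 of the 82 were higher at an unadjusted p under 0.05 (4.99% of all tested genes), with 0 passing the adjusted p. With the leukocyte score as a covariate the median was 0.76 and edgeR passed 37 of the 82, against 0.991% of all tested genes. With IgG 5 and IgG 6 left out the median was 0.68 and 0 of the 82 passed, against 0.00757% of all tested genes. Which cells carried the ribosomal protein RNA was not tested.

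**Figure D3:**
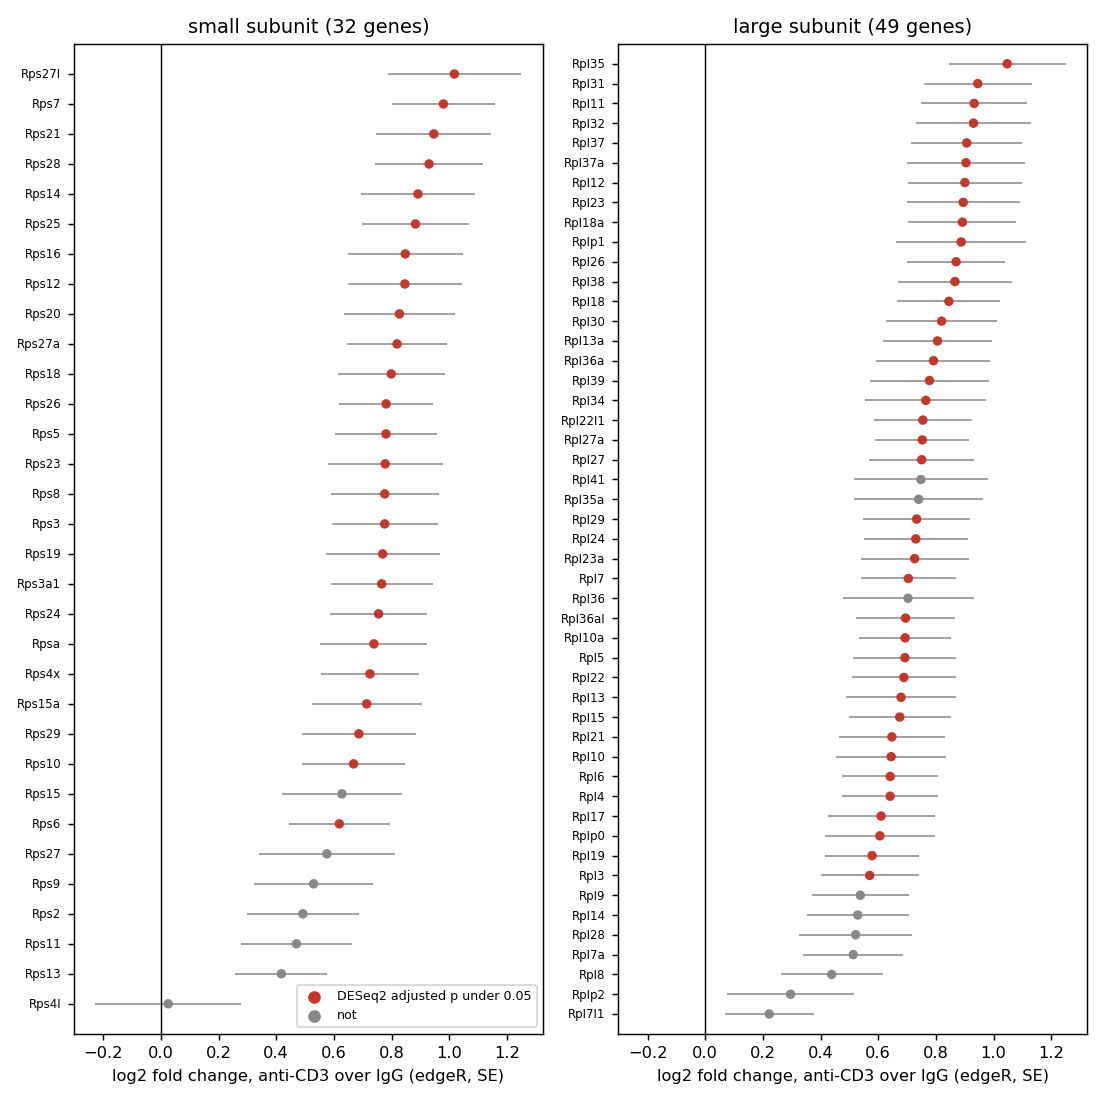
Log2 ratio of anti-CD3 to IgG for 81 of the 82 ribosomal protein genes (points, edgeR, with SE as lines, n = 6 per group), small subunit at left and large subunit at right, red where DESeq2 passed the gene at an adjusted p under 0.05. All points lie above 0, most between 0.5 and 1.0, and Rps4l, Rpl7l1 and Rplp2 are the lowest.

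The highest fold changes came from both subunits. Rpl35, a protein at the exit of the peptide tunnel, had normalized counts of 1534 to 2663 in IgG (median 2157) and 2639 to 5528 in anti-CD3 (median 4459). Its 5 other anti-CD3 libraries lay above all IgG libraries, and anti-CD3 2, at 2639, lay just under IgG 4. The log2 fold change was 1.05 ± 0.20 (SE, n = 6 per group; edgeR adjusted p = 0.0646, DESeq2 adjusted p = 5.62e-04). Rps7, a small-subunit protein that also binds the p53 regulator MDM2, had 3075 to 4712 in IgG (median 3740) and 4877 to 9443 in anti-CD3 (median 7589), without overlap. It was higher by 0.98 ± 0.18 (SE; edgeR adjusted p = 0.0646, DESeq2 adjusted p = 1.15e-04).

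Rps21, a small-subunit protein of the solvent side, had 1007 to 1476 in IgG (median 1229) and 1344 to 3240 in anti-CD3 (median 2399). Only anti-CD3 2 fell inside the IgG range. The log2 fold change was 0.95 ± 0.20 (SE; edgeR adjusted p = 0.0659, DESeq2 adjusted p = 0.00267). Rps27l, the p53-induced paralog of Rps27, had 385 to 947 in IgG (median 540) and 806 to 1613 in anti-CD3 (median 1280). Its lowest value was in IgG 6 and the overlap was again anti-CD3 2, with a log2 fold change of 1.02 ± 0.23 (SE; edgeR adjusted p = 0.0659, DESeq2 adjusted p = 0.00458), or 0.65 with the acinar covariate.

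The start regions of these 4 genes and of 3 genes with the lowest fold changes are shown because members of this family are known for a common promoter architecture. RefSeq (GRCm38.p6) held windows of 250 bases before to 50 after the start for 61 of the 82 genes, 72 windows in all, and Rps4l was among those not matched. Each line gives 40 bases before and 30 after the annotated start, 5′ to 3′ on the gene's strand, with capitals for a match to CTTTCC or CCGGAAG or the reverse complement of either. Rpl35 lies at chr2:39005102-39005171 (minus strand), Rps27l at chr9:66946046-66946115 (plus), Rps7 at chr12:28635924-28635993 (minus), Rps21 at chr2:180257339-180257408 (plus), Rpl7l1 at chr17:46782627-46782696 (minus), Rplp2 at chr7:141447611-141447680 (plus) and Rps13 at chr7:116334161-116334230 (minus).
Rpl35: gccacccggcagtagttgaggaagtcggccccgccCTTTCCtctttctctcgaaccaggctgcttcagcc
Rps27l: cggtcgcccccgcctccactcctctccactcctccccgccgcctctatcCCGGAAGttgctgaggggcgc
Rps7: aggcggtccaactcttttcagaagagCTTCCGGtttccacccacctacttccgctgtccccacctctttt
Rps21: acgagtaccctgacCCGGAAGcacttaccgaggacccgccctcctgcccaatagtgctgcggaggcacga
Rpl7l1: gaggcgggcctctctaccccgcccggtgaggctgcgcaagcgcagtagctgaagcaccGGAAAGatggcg
Rplp2: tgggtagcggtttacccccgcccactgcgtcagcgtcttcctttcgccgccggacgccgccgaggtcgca
Rps13: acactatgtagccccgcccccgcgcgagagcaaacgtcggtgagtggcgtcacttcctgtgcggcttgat

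In Rpl35 the pyrimidine string CTTTCC spans the annotated start, and in Rps7 and Rps21 the string CCGGAAG, the core that ETS factors bind, lies upstream of it, in Rps21 on the gene's own strand and in Rps7 on the opposite strand. Over the full windows, CTTTCC on the gene's strand was in 38.9% of 72 ribosomal protein windows and in 14.1% of 32851 windows of all genes, and on the other strand in 19.4% and 14.4%. CCGGAAG on either strand was in 36.1% against 8.86%. TCGCGAGA on either strand, whose matches on the 2 strands overlap because it holds a palindrome, was in 16.7% against 0.995%. TATAAA, the TATA box string, was in 9.72% against 13.6% on either strand. These matches describe letters in the windows, and no binding was measured here.

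Genes of known special roles lay within the range of the rest. Rpsa, which is also known as a laminin receptor, had 5100 to 9397 normalized counts in IgG (median 8065) and 9019 to 15566 in anti-CD3 (median 12681), and was higher by 0.74 ± 0.19 (SE; edgeR adjusted p = 0.0866, DESeq2 adjusted p = 0.0066). Rps6, the ribosomal protein phosphorylated downstream of mTORC1, was higher by 0.62 ± 0.17 (SE; edgeR adjusted p = 0.108, DESeq2 adjusted p = 0.0275), from a median of 3137 to 5218. Rps19, the gene most often mutated in Diamond-Blackfan anaemia, was higher by 0.77 ± 0.20 (SE; edgeR adjusted p = 0.0887, DESeq2 adjusted p = 0.0179). In Rpsa and Rps19 anti-CD3 2 lay inside the IgG range, and in Rps6 it did so too.

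Rpl5 and Rpl11, which join 5S rRNA in a particle that also restrains MDM2, were higher by 0.69 ± 0.18 and 0.93 ± 0.18 (SE; edgeR adjusted p = 0.0887 and 0.0646, DESeq2 adjusted p = 0.0122 and 5.88e-04). Rpl11 had 2515 to 3737 in IgG (median 3055) and 3790 to 7530 in anti-CD3 (median 6059), without overlap, whereas for Rpl5 the groups overlapped. Rps27a, made as a fusion with ubiquitin, had 1452 to 2196 in IgG (median 1959) and 2225 to 4294 in anti-CD3 (median 3334). Its groups did not overlap either, and it was higher by 0.82 ± 0.17 (SE; edgeR adjusted p = 0.0659, DESeq2 adjusted p = 0.00267).

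The 9 genes around the peptide exit had a median log2 fold change of 0.78. Among them Rpl39, a very short protein of the tunnel wall, was higher by 0.78 ± 0.21 (SE; edgeR adjusted p = 0.0925, DESeq2 adjusted p = 0.0243) and Rpl22, which also binds other RNAs, by 0.69 ± 0.18 (SE; edgeR adjusted p = 0.0911, DESeq2 adjusted p = 0.0234). Rpl41, the smallest ribosomal protein, was higher by 0.75 ± 0.23 and did not pass DESeq2 (SE; edgeR adjusted p = 0.136, DESeq2 adjusted p = 0.0517). With the offset by the best supported transcript Rpl39 was at 0.26, Rpl22 at 0.098 and Rpl41 at 0.21, and with the acinar covariate Rpl41 was at 0.46. The value of Rpl41 in anti-CD3 1, 10352 normalized counts, stood well above its anti-CD3 median of 6247.

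Rplp0, Rplp1 and Rplp2 form the acidic stalk, which recruits elongation factors to the ribosome, and differences among the 3 were not tested. Rplp0, the base of the stalk, had 5188 to 9413 in IgG (median 7762) and 7910 to 14023 in anti-CD3 (median 11710), with a log2 fold change of 0.61 ± 0.19 (SE; edgeR adjusted p = 0.139, DESeq2 adjusted p = 0.0462). Rplp1, which pairs with Rplp2 on that base, had 3843 to 7090 in IgG (median 5804) and 6201 to 14135 in anti-CD3 (median 10308), with a log2 fold change of 0.89 ± 0.23 (SE; edgeR adjusted p = 0.0879, DESeq2 adjusted p = 0.00931). Rplp2, its partner, overlapped widely: 674 to 1345 in IgG (median 865) and 750 to 1709 in anti-CD3 (median 1097). Its log2 fold change was 0.30 ± 0.22 (SE; edgeR adjusted p = 0.477, DESeq2 adjusted p = 0.5), or -0.067 with the correction for transcript length, which put Rplp0 at 0.37 and Rplp1 at 0.35. With the acinar covariate Rplp0 was at 0.37, Rplp1 at 0.57 and Rplp2 at 0.34, so Rplp2 lay close to Rplp0. With the leukocyte covariate they were at 0.57, 0.87 and 0.42. Rplp2 ran from 0.16 without anti-CD3 1 to 0.44 without IgG 1. IgG 1, at 1345, was higher for Rplp2 than 4 of the 6 anti-CD3 libraries.

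At the low end, Rps13, a small-subunit protein near the subunit interface, had 933 to 1253 in IgG (median 1172) and 1098 to 1960 in anti-CD3 (median 1471). Anti-CD3 2 and anti-CD3 3 lay inside the IgG range. The log2 fold change was 0.42 ± 0.16 (SE; edgeR adjusted p = 0.193, DESeq2 adjusted p = 0.14), or -0.077 when corrected by the length of the best supported transcript. Rps4l had between 35.3 and 76.4 normalized counts in IgG (median 58.5) and between 41.8 and 91.1 in anti-CD3 (median 49.8). Its log2 fold change of 0.03 ± 0.25 (SE; edgeR adjusted p = 0.969, DESeq2 adjusted p = 0.977) left the groups fully overlapping. It is the 1 gene of the 82 that GENCODE M21 does not annotate as protein-coding: it is a transcribed processed pseudogene on chromosome 6.

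Pairs of a ribosomal protein gene and a paralog copy allowed a ratio within each library, which no scaling factor can alter. It was not corrected for transcript length. The test of these ratios was added after the data were seen and covered 5 pairs, with 924 regroupings and 0.00216 as the smallest possible p. The copy Rpl7l1, whose protein is known from ribosome assembly, had 313 to 492 normalized counts in IgG (median 351) and 331 to 538 in anti-CD3 (median 444), a log2 fold change of 0.22 ± 0.15 (SE; edgeR adjusted p = 0.446, DESeq2 adjusted p = 0.476). Its parent Rpl7 was higher by 0.70 (edgeR). The transcripts of Rpl7l1 and Rpl7 are 2606 and 1163 bases long. The median log2 fold change of other protein-coding genes was -0.03 over 2000 and up to 3000 bases, and 0.13 over 1000 and up to 1500. The part of length in this ratio was not tested. Rpl7l1 stood at 10.8%, 11.5%, 15.2%, 12.6%, 15.8% and 13.6% of Rpl7 in IgG 1 to 6 and at 8.19%, 9.85%, 12.4%, 9.45%, 9.11% and 8.18% in anti-CD3 1 to 6. All 6 anti-CD3 libraries were below the IgG mean of 13.2% ± 1.99 (SD, n = 6), and only anti-CD3 3 was inside the IgG range. The log2 ratio differed by -0.47 (exact permutation p = 0.00649, two-sided; p = 0.0324 adjusted over the 5 pairs), and by -0.55 to -0.42 with 1 library left out.

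**Figure D4:**
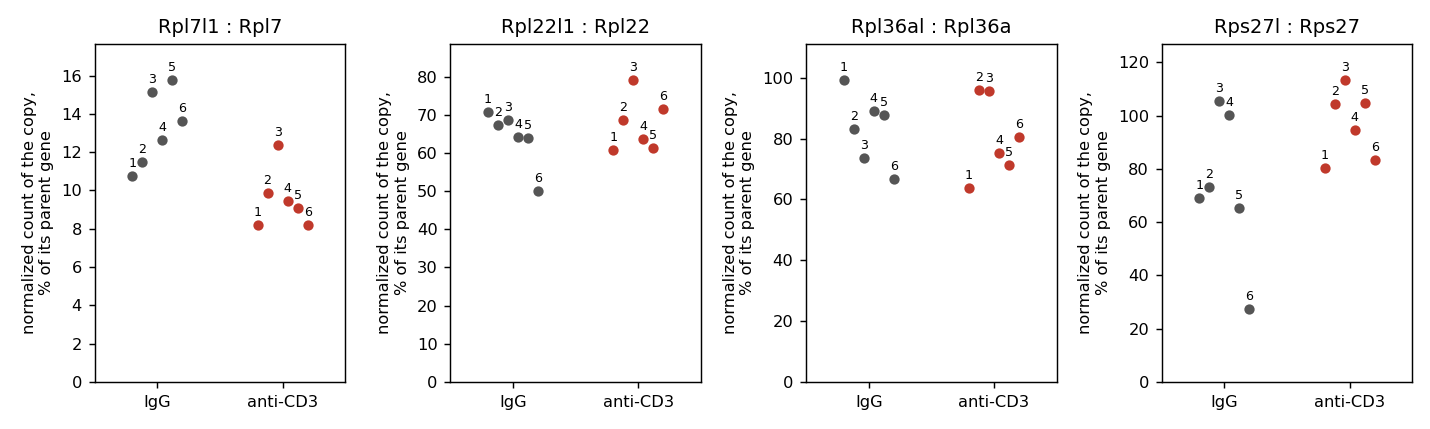
Normalized count of 4 paralog copies as a percent of their parent gene in each library (points, numbered by replicate; the y axis starts at 0). Rpl7l1 is lower against Rpl7 in anti-CD3, and IgG 6 has the lowest percent for Rps27l and Rpl22l1.

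The other 4 pairs did not pass. Rps27l stood at 73.4% ± 28.1 of Rps27 in IgG against 96.8% ± 13.1 in anti-CD3 (SD, n = 6 each), a log2 ratio difference of 0.51 (exact permutation p = 0.0736, adjusted p = 0.123). The ratio difference ran from 0.25 without IgG 6 to 0.63 without IgG 3, with exact permutation p from 0.0195 to 0.165 over the omissions. IgG 6 stood at 27.3%, apart from the 65.5% to 105.4% of the other IgG libraries. Rps27 itself was highest among IgG libraries in IgG 6, at 1409 normalized counts against 708 to 945 in the others, and ran from 771 to 2011 in anti-CD3. Rps27 had a log2 fold change of 0.58 ± 0.24 (SE; edgeR adjusted p = 0.218, DESeq2 adjusted p = 0.179), or -0.17 when corrected by the length of the best supported transcript. It was at 0.79 with the acinar covariate, 0.78 with the leukocyte covariate and 0.75 without IgG 6.

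Rpl22l1, which can replace Rpl22, was higher by 0.75 ± 0.17 (SE; edgeR adjusted p = 0.0659, DESeq2 adjusted p = 0.00594), and its ratio to Rpl22 differed by 0.08 (exact permutation p = 0.478). Rpl36al against Rpl36a differed by -0.05 (exact permutation p = 0.68), and Rps4l against Rps4x by -0.72 (exact permutation p = 0.0693, adjusted p = 0.123), with -0.96 to -0.58 and p from 0.0108 to 0.13 with 1 library left out. Copies outside the table were almost silent: Rpl3l, a muscle paralog, had 53 counts over 11 libraries, Rpl39l 1 count, and Rpl10l 0 counts in any library.

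Apart from the common movement, most genes kept a fixed distance to each other. After the mean of the 82 genes was subtracted in each library, the SD of a gene over the 12 libraries had a median of 0.136 log2 units and was under 0.2 in 68 genes. It was at least 0.3 in 5 genes, named after their values were seen: Rps4l, Rplp2, Rpl7l1, Rps27 and Rps27l. The largest shifts in IgG 6 were upward for Rps27 (0.83), Rplp2 (0.59), Rpl34 (0.46) and Rpl39 (0.43) and downward for Rps27l (-0.72), Rplp1 (-0.51), Rpl32 (-0.49) and Rpl35 (-0.45). IgG 6 was also the library with the highest leukocyte and the lowest acinar values, and the part of these in the shifts was not tested. The balance of the subunits was similar, with small-subunit genes taking 40.8% ± 1.17 of ribosomal protein counts in IgG against 41.1% ± 0.426 in anti-CD3 (SD, n = 6 each).

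Per length, the genes differed widely in level although a ribosome holds each protein in a fixed number. Rplp1 had the highest mean level, 11124 ± 2933 normalized counts per kb of transcript in IgG against 20584 ± 5796 in anti-CD3 (SD, n = 6 each), followed by Rps14, Rpl10, Rpl32 and Rpl41. Rpl7l1 was the lowest of the 81 protein-coding genes, at 145 ± 28.8 and 169 ± 26.0 per kb. Rps15a and Rps20 were also among the 4 lowest, but their annotated transcripts of 5130 and 3706 bases exceed the median of 761, so their level per kb depends on that annotation. Fold change and level per kb were weakly related, with a Pearson r of 0.27 and a Spearman rho of 0.16 across the 81 genes, which share the same 12 libraries.

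Transcript length went with the fold change over the whole table. Among other protein-coding genes the median log2 fold change was 0.49 for the 55 with transcripts up to 500 bases, 0.37 for the 237 over 500 and up to 750, 0.30 for the 433 over 750 and up to 1000, and -0.15 for the 5943 over 3000. Ribosomal protein genes lay higher within the same classes, with medians of 0.79 (15 genes), 0.78 (23 genes) and 0.67 (23 genes) in the first 3. Within the family the relation to log2 length was weak (Pearson r = -0.24, Spearman rho = -0.25, 81 genes, which share libraries).

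With an offset for length, fitted over all genes, the median of the 82 was 0.45 by the longest transcript and 0.31 by the best supported transcript. At an unadjusted p under 0.05, 63 and 49 of the 82 were then higher, against 8.49% and 8.18% of all tested genes, and 0 passed the adjusted p, against 0.0305% and 0.0381%. Of the ribosomal protein genes given here with values, Rpsa (0.61), Rpl5 (0.63) and Rpl7l1 (0.20) stayed within 1.5 times of their uncorrected value in both forms. By the best supported transcript Rpl35 was at 0.73, Rps7 at 0.60, Rpl11 at 0.56, Rps27l at 0.46, Rps19 at 0.36, Rps27a at 0.35, Rps6 at 0.28, Rps21 at 0.28 and Rpl22l1 at 0.23. The second form of the offset was added after the data were seen. What ties fold change to length in these libraries was not tested.

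**Figure D5:**
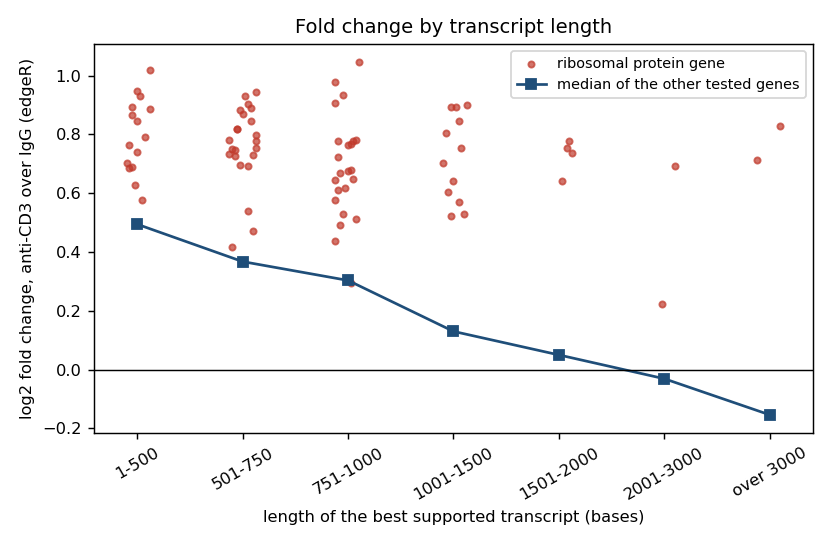
Log2 ratio of anti-CD3 to IgG (edgeR) against transcript length class in bases for the protein-coding ribosomal protein genes (red points, jittered sideways) and the median of the other tested protein-coding genes (blue squares). The blue medians fall from 0.49 in the shortest to -0.15 in the longest class, and nearly all red points lie above the blue line.

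Other parts of the translation machinery had smaller median differences before any correction for transcript length. With the offsets by the longest and by the best supported transcript, ribosomal protein genes were at 0.45 and 0.31. Elongation factors were then at 0.26 and 0.25 and initiation factors at 0.19 in both, so most of the distance to elongation factors was gone with the second. Of the 3 genes that belong to the ribosome or bind it but carry other names, all had values above 0, with a median of 0.59. Rack1, a scaffold on the small subunit, was higher by 0.59 ± 0.17 (SE; edgeR adjusted p = 0.11, DESeq2 adjusted p = 0.0237). Elongation factors bring tRNAs and move the ribosome, and the list of 9 genes used for them also counted Tpt1. The median of this list was 0.31 (0.19 with the acinar covariate or without IgG 5 and IgG 6). In it 8 of 9 were above 0, 4 were higher at an unadjusted p under 0.05, and the 1 passed by DESeq2 was Tpt1. Over all tested genes the shares by these 3 measures were 44.8%, 9.68% and 2.81%, which also apply to the other lists. Tpt1, itself a TOP mRNA, was higher by 0.68 ± 0.20 (SE, edgeR adjusted p = 0.124, DESeq2 adjusted p = 0.0275). The exchange factor gene Eef1b2 was higher by 0.53 ± 0.19 (SE, edgeR adjusted p = 0.175, DESeq2 adjusted p = 0.102). With the acinar covariate Tpt1 was higher by 0.40 and Eef1b2 by 0.25.

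Initiation factors had a median of 0.19, with 34 of 39 above 0 and 12 higher at an unadjusted p under 0.05. The median was 0.031 with the acinar covariate, 0.12 with the leukocyte covariate, 0.057 without IgG 5 and IgG 6, and 0.11 without IgG 6 alone. DESeq2 passed 3 of them, among them Eif3i and Eif1ax. Eif3i, a subunit of the eIF3 complex, was at 0.65 ± 0.17 (SE, edgeR adjusted p = 0.0885, DESeq2 adjusted p = 0.0177). Eif1ax, which helps select the start codon, was at 0.50 ± 0.13 (SE, edgeR adjusted p = 0.0942, DESeq2 adjusted p = 0.0243). Eif3i was at 0.41 with the offset by the best supported transcript. The 77 tested mitochondrial ribosomal protein genes, which serve the separate ribosome of mitochondria, had a median of 0.33, with 71 above 0, 31 higher at an unadjusted p under 0.05 and 7 passed by DESeq2. Their median was 0.21 with the acinar covariate and 0.17 and 0.11 with the length offsets.

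Genes that build ribosomes had a median near that of all tested genes, -0.05. Of 61 tested ribosome biogenesis genes 30 were above 0 and the median was 0.00 to 2 decimals. At an unadjusted p under 0.05, 3 were higher and 9 lower, against 9.68% and 8.68% of all tested genes. The share higher was thus smaller and the share lower larger than over all tested genes, which was not tested. Nop10, a small protein of the particles that modify rRNA, was higher by 0.70 ± 0.15 (SE, edgeR adjusted p = 0.0659, DESeq2 adjusted p = 0.00833). Polr1b, a core subunit of RNA polymerase I, was lower by 0.85 ± 0.23 (SE, edgeR adjusted p = 0.0942, DESeq2 adjusted p = 0.0221). Both passed DESeq2 and neither passed edgeR. Nop10 was at 0.38 and 0.43 with the length offsets. Rheb, the activator of mTORC1, had a log2 fold change of 0.34 ± 0.16 (SE; edgeR adjusted p = 0.273), in a list of 13 LARP1 and mTORC1 genes with 7 above 0 and a median of 0.04, or -0.17 without IgG 5 and IgG 6. In the same list Ddit4, a stress-induced inhibitor of mTORC1, had the smallest p, at 1.25 ± 0.24 (SE; edgeR adjusted p = 0.0646, DESeq2 adjusted p = 3.7e-04).

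The 82 genes are spread over 19 chromosomes, with 4 on chromosome X, and 30 of them hold 58 annotated snoRNA genes within their bounds. Processed pseudogenes of ribosomal protein genes share nearly all of their sequence with the parent gene, and no source used here says how reads with more than 1 match were counted. The value of each gene is uncertain to that extent. Among the deposited counts 280 rows carried a ribosomal protein gene name with the pseudogene suffix -ps, 199 of them with a count. These rows took 1.08% ± 0.0748 as many counts as the ribosomal protein genes in IgG against 1.01% ± 0.0335 in anti-CD3 (SD, n = 6 each). Pseudogenes with other names, such as Rps4l, are not in that number, so it is a lower bound. Raw counts of the protein-coding genes ran from 257 to 15848 per library.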

How the data were processed

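Poly(A) RNA of islets was sequenced in 12 libraries, 6 per group, grouped by sample titles. Per the submitters' processing notes, the tools were Trimmomatic 0.36, STAR 2.5.2b with GRCm38, featureCounts (Subread 1.5.2) and DESeq2. The deposited count table holds raw counts per Ensembl gene. The authors' deposited comparison table gives for each library a normalized signal, here called the normalized count, which equals the count divided by 1 size factor per library, with a log2 fold change and p-values by the authors. The number of sample columns with no matching sample was 0. The authors' adjusted p-value is NA for 2935 genes and was left so.

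Counts were tested in R 4.3.3 with edgeR 4.0.16 (filterByExpr with a minimum count of 10 and a minimum total of 15, TMM factors, quasi-likelihood F test with robust estimation, Benjamini-Hochberg adjustment over all 13115 genes, two-sided, threshold 0.05) and, as an alternative, DESeq2 1.42.0. Given SEs come from the edgeR fold change and its F statistic. The range of library totals is in the report, and every protein-coding gene of the family had at least 257 counts per library, so counting error was small beside the spread between libraries. Paralog ratios used an exact permutation test. Transcript lengths, biotypes and snoRNA genes came from GENCODE M21, using the best supported protein-coding transcript. Start regions came from RefSeq (GRCm38.p6). The edgeR fit was run on simulated counts, drawn independently for each gene with the same dispersion for all. These held no libraries that stand apart, so that run does not describe such libraries.

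The genes with values were chosen by a rule: any of the family past the test, the 4 highest and 4 lowest fold changes, a panel of 15 genes with known special roles, and the 2 smallest p of each of 5 translation lists. Others are marked, and some genes are not reported here. The members and all lists were chosen with earlier results of these data known. Alternatives were DESeq2, RLE factors, TMM without acinar genes, no filter, CPM above 1 in 6 libraries, the replicate number as a block, acinar or leukocyte scores as covariates, a transcript length offset (lowess, span 0.3), leaving out IgG 5 and IgG 6, and leaving out each library. Added after the data were seen were the offset by the best supported transcript, the paralog ratio test, and group overlap, paralog ratios and count shares with libraries left out.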

Additional observations from a re-analysis of the deposited data

Results flagged for a closer look

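3 values stood apart from the other libraries of their group by Dixon's criterion, which chance meets in about 5% of groups of 6. With 74 groups checked (31 genes and 6 library measures in both groups), chance alone would give about 3.7. The normalized count of Rps27 in IgG 6 was 1409, against 708 to 945 in the other IgG libraries. Eif1ax had 413 normalized counts in anti-CD3 2, against 527 to 594 in the other anti-CD3 libraries. Ribosomal protein genes took 3.00% of all counts in IgG 6, against 1.36% to 1.73% in the other IgG libraries, and IgG 6 had the smallest acinar share, 34.0%.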

How the results depend on the processing

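The median log2 fold change of the 82 ribosomal protein genes, 0.75, was above 0 under all 23 alternatives, from 0.31 to 0.85. It was 0.45 with the transcript length offset and 0.31 with that of the best supported transcript, where the small-subunit medians were 0.45 and 0.35 and the large-subunit median was 0.29 with the second. The number of the 82 past the threshold, 0 with edgeR, was 65 with DESeq2, 48 with no filter on low counts, 37 with the leukocyte covariate, and 0 to 60 with 1 library left out, the 60 without anti-CD3 2. At an unadjusted p under 0.05, 79 was 49 with the second length offset. Over all tested genes the number past the threshold, 10, was 468 with DESeq2, 167 with no filter, 148 with the leukocyte covariate, 4 and 5 with the length offsets, 1 without IgG 5 and IgG 6, 0 with the acinar covariate, and 0 to 203 with 1 library left out. The log2 ratio of ribosomal protein shares, 0.57, was 0.11 over all counts. Rps4l changed sign, at -0.15 with the acinar covariate, -0.086 with the leukocyte covariate, -0.27 with the length offset, -0.076 without IgG 5 and IgG 6, and -0.17 to 0.14 with 1 library left out. Rplp2 was at -0.067 and -0.017 with the length offsets, Rps13 at -0.077 and Rps27 at -0.17 with the second, and the ratio of Rpl36al to Rpl36a, -0.05, ran from -0.12 without IgG 6 to 0.010 without anti-CD3 1. The cause was not tested in any of these. RLE factors, TMM without acinar genes and the CPM filter left 0 of the 82 past the threshold and medians of 0.74 to 0.75.

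Whether the replicate numbers pair the samples could not be settled from the counts. Same-numbered libraries correlated over 0.1 in 3 of 6 pairs, and 3 correlated best with their own number. The correlation was 0.55 and 0.54 in pairs 3 and 6, and -0.20 and -0.29 in pairs 4 and 5. With the replicate number as a block, 0 of the 82 and 0 genes in all passed, and the median was 0.73. The lowest raw count of a protein-coding gene of the family in any library was 257. Acinar share and group are partly confounded through IgG 5 and IgG 6, and cannot be told apart fully with 6 libraries per group.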
